A study of Mus musculus with 10 samples.

Results

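RAW 264.7 macrophages that had shared medium with 3T3-L1 adipocytes across a membrane were compared with RAW 264.7 macrophages grown alone. The arrays were chosen by their titles, 2 of macrophages in bilayer and 2 of macrophages in monolayer, and make up 4 of the 10 arrays of the series. The other 6 are of the adipocytes, 3 in bilayer and 3 in monolayer, and serve here as a second cell line exposed to the same culture. All probes with 1 gene symbol were used, 34885 of 45281, and 10326 of the 19057 genes on the array gave enough signal in macrophages to be tested.

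For the bilayer, macrophages were seeded in 20 mL on a polycarbonate membrane with 0.4 µm pores and left for 18 h to attach. The insert was then placed over the adipocytes with 25 mL of fresh medium for 24 h, in DMEM with fetal bovine serum. The adipocytes had been differentiated to day 8 with 0.5 mM IBMX, 1 µM dexamethasone and 10 µg/mL insulin, agents that the labels give for 3T3-L1 cells and not for the macrophages of either group. RAW 264.7 is an immortal mouse macrophage line, labelled as from ascites, and 3T3-L1 is a fibroblast line from mouse embryo that can be turned into fat cells. Each sample was a pool of 5 dishes, per the labels. The labels do not say whether monolayer macrophages sat on a membrane, or in which volume of medium, so these and the presence of adipocytes cannot be told apart. The series record calls the samples biological replicates, but nothing says that they came from separate cultures, so the p-values refer to the scatter among these arrays, part of which may be technical.

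Macrophages live among fat cells in adipose tissue, and the cell types act on each other through cytokines, fatty acids and other secreted molecules. Macrophage states are often set between classical activation, which makes inflammatory cytokines and nitric oxide from arginine, and alternative activation, in which arginase uses the same arginine. Interleukin-1 is a central inflammatory cytokine, and its action is limited by a receptor antagonist and by a decoy receptor that binds it without signalling. Low oxygen stabilises HIF transcription factors, which raise genes of glycolysis and of mitochondrial restraint. The purpose stated by the design is the comparison of each line alone with the lines together.

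Values are the authors' background-subtracted, normalized probe intensities, which have no absolute unit. A noise bound of 10.9 was taken from the size of the values below 0. Differences are on the scale log2(intensity + 16), bilayer minus monolayer, with a standard error (SE) in the same unit, and a fold is 2 to the power of that difference, which understates the change of dim genes. Adjusted p is from limma with Benjamini-Hochberg adjustment, and a gene was called where it was below 0.05. The 4 macrophage arrays correlated at r = 0.9884 to 0.9911 over the tested genes. Their number limits the precision, and the spread of each gene was pooled with that of the 6 adipocyte arrays.

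Marker genes matched the label of the cells. Of 25 macrophage identity genes on the array, 22 were above noise on all 4 macrophage arrays, Cybb on 3 of them, Fcer1g on 1 and Ms4a6c on none. Their summed intensity was 105700 and 106000 on the monolayer arrays and 106900 and 104100 on the bilayer arrays, against 341.2 to 431.2 on the adipocyte arrays. Of 19 adipocyte markers, 3 or 4 were above noise on a macrophage array. Their sum was 4648 and 4657 in monolayer and 3461 and 4120 in bilayer, nearly all of it the lipoprotein lipase gene Lpl, and the adipocyte genes Fabp4, Cidec, Plin4, Car3 and Scd1 were at or near 0 on all 4 arrays. Of 23 fibroblast and preadipocyte markers, 2 to 5 were above noise, with sums of 158.6 and 162.4 in monolayer and 207.9 and 207.6 in bilayer.

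Macrophages above adipocytes carried more mRNA of a small set of genes, led by Arg1, Il1r2, Tnfrsf9 and Rgcc, and less of a smaller set that included the iron genes Slc40a1 and Tfrc and the lysosomal lipase gene Lipa. In all, 69 of 10326 genes were called, which is 0.668%. Of these, 51 were higher in bilayer (0.494%) and 18 lower (0.174%). With groups below noise set at their bound, 16 were at least 2-fold higher and 1, Chd1, at least 2-fold lower. The median difference over all tested genes was 0.0027. At an unadjusted p under 0.05 there were 1124 genes, 603 higher and 521 lower. When the 4 macrophage arrays were fitted alone, 155 genes were called (1.5%), 93 higher and 62 lower, and 49 of the 69 were among them.

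**Figure D1:**
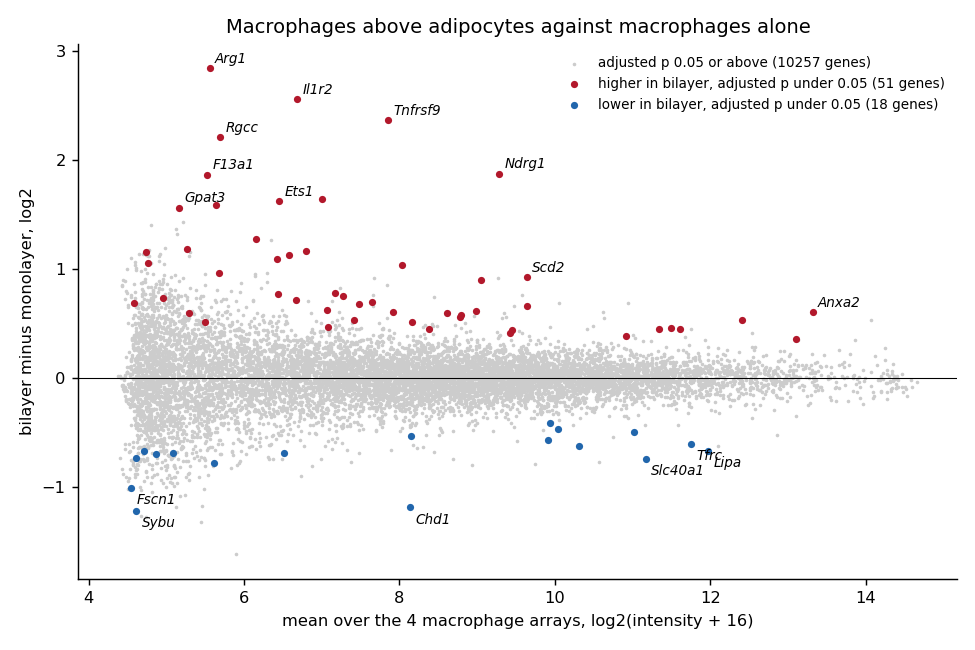
Difference between bilayer and monolayer macrophages (y axis, log2) against the mean of the 4 macrophage arrays (x axis, log2(intensity + 16)) for 10326 genes, 1 point each. The 51 genes called higher reach 2.84 for Arg1, and the 18 called lower reach -1.22 for Sybu, with most genes close to 0.

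The call list depended on each array. With 1 array left out it fell to 37 genes without monolayer replicate 1, 19 without monolayer replicate 2, 14 without bilayer replicate 1 and 9 without bilayer replicate 2. The genes called in all 4 of these fits were Il1r2, Ets1, Plod2, Scd2, Gsn and Cish, and 35 of the 69 were called in none, although some of these could not be tested in each fit. Adjusted p-values with 1 array left out are given below as ranges.

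Arginase 1, encoded by Arg1, turns arginine into ornithine and urea and is the usual mark of alternatively activated mouse macrophages. Its intensity was -2.24 and 3.42 on the monolayer arrays and 107 and 113 on the bilayer arrays. Both monolayer arrays were inside the noise and both bilayer arrays far above it. The gene entered the test through the bilayer arrays alone. The rise was at least 4.69-fold, with a fitted difference of 2.84 (SE 0.26, adjusted p = 0.000246, and 1.3e-05 with the macrophage arrays alone). It was also called without either monolayer array (adjusted p = 0.00215 to 0.00348), while without a bilayer array it was not tested, being above noise on too few. A further probe of the gene rose as well, by 1.77.

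Other enzymes and carriers around arginase gave no call. Of 15 tested genes of arginine and polyamine metabolism, Arg1 was higher, none was lower and 14 did not pass, with a median of 0.12. Among all tested genes 0.494% were called higher, and the median was 0.0027. Nos2, the inducible nitric oxide synthase that competes for arginine, read 4.06 and 4.01 in monolayer and 19.4 and 13 in bilayer. The bilayer values lay just above noise, and the gene entered the test through them alone. The difference did not pass (0.68, SE 0.37, adjusted p = 0.554). Arg2, the mitochondrial arginase, was below noise on all 4 arrays, between -6.05 and 5.69.

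Other marks of alternative activation gave no call in the pooled fit. Of 15 tested genes of that list Arg1 alone was called, with a median of 0.02, beside 0.494% called higher among all tested genes. A further 13 genes of the list on the array were too dim in macrophages to be tested. Gpnmb, a lysosomal membrane glycoprotein chosen after its values were seen, read 1960 and 1980 in monolayer and 1200 and 1090 in bilayer. The difference of -0.77 (SE 0.17, adjusted p = 0.0622) did not pass. Gpnmb was called lower with the macrophage arrays alone (adjusted p = 1.53e-05), where 1 gene of the list was higher and 1 lower. That fit called 1.5% of all tested genes. The mannose receptor gene Mrc1 read 9.85 and 8.83 in monolayer and 20.8 and 14.3 in bilayer, near the noise bound (0.40, SE 0.29, adjusted p = 0.714). The chitinase-like gene Chil3 was below noise on all 4 arrays, at -3.67 to 2.61. Of 17 tested classical activation genes none was called by limma, with a median of 0.21 and 5 with an unadjusted p under 0.05. Such a p was found for 1124 of all 10326 tested genes. Nod2, a sensor of bacterial peptidoglycan, had the smallest p, at 39.6 and 30.4 in monolayer and 84.2 and 79.9 in bilayer (0.95, SE 0.25, adjusted p = 0.149). It was called with the macrophage arrays alone (adjusted p = 0.0277). Acod1, the enzyme that makes itaconate, was the other of 2 genes of the list called higher in that fit and was chosen after its values were seen. It read 544 and 559 in monolayer and 843 and 915 in bilayer (0.66, SE 0.19, adjusted p = 0.188, and 0.000258 with the macrophage arrays alone).

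The interleukin-1 decoy receptor gene Il1r2 read 22.5 and 30.8 in monolayer and 262 and 207 in bilayer. All 4 arrays were above noise, and the bilayer arrays were several-fold above the monolayer arrays. The difference of 2.55 (SE 0.25), or 5.86-fold, had an adjusted p of 0.000298, and of 0.00472 to 0.0265 with 1 array left out. With the macrophage arrays alone it was 1.06e-07. Of 24 tested interleukin receptors and antagonists it was the 1 called, with a median of -0.12 over the list. The signalling receptor gene Il1r1 was below noise on all 4 arrays, at -1.67 to 7.31. The receptor antagonist gene Il1rn read 60.6 and 67.5 in monolayer and 55.1 and 49.1 in bilayer, slightly lower without passing the test (-0.23, SE 0.24, adjusted p = 0.821). Il1r2 is also a known glucocorticoid-induced gene, and of 15 tested genes of the glucocorticoid response it was the 1 called, with a median of 0.14. Beside both lists, the share called higher among all tested genes was 0.494%, with a median of 0.0027.

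Among inflammatory cytokines, Il1b, the ligand that the decoy binds, read 34.0 and 26.5 in monolayer and 76.0 and 61.1 in bilayer. The difference of 0.87 (SE 0.26) did not pass (adjusted p = 0.205). Tnf read 1060 and 871 in monolayer and 1270 and 972 in bilayer, with overlapping groups (0.21, SE 0.19, adjusted p = 0.782). Il6 was below noise throughout, at -4.98 to 0.682. The monocyte chemokine gene Ccl2 read 3720 and 3660 in monolayer and 3000 and 3150 in bilayer, a difference of -0.26 (SE 0.13) that did not pass (adjusted p = 0.486). Of 15 tested chemokines none was called, 2 had an unadjusted p under 0.05, 3 a positive difference and the median was -0.22. Among all 10326 tested genes 1124 had such a p, and the median was 0.0027. Ccl9, a chemokine for myeloid cells, had the smallest p of them (7880 and 8040 against 6150 and 6840, adjusted p = 0.367).

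Tnfrsf9 encodes 4-1BB (CD137), a receptor of the TNF family known for co-stimulating T cells. Its intensity was 81.8 and 90.9 in monolayer and 532 and 488 in bilayer. The spread within each group was small beside the 5.14-fold rise, a difference of 2.36 with a pooled SE of 0.47 (adjusted p = 0.0354). The macrophage arrays alone gave an SE of 0.12 and an adjusted p of 4.3e-10. The call was lost with any 1 array left out (adjusted p = 0.251 to 0.318), in the pooled fit. Of its other probes 1 rose by 2.35 and 1 pointed the other way at -0.23. Its ligand gene Tnfsf9 read 187 and 197 in monolayer and 203 and 199 in bilayer (0.07, SE 0.23, adjusted p = 0.969). Of 21 tested TNF ligands and receptors Tnfrsf9 was the 1 called, with a median of 0.06, beside 0.494% called higher among all tested genes.

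**Figure D2:**
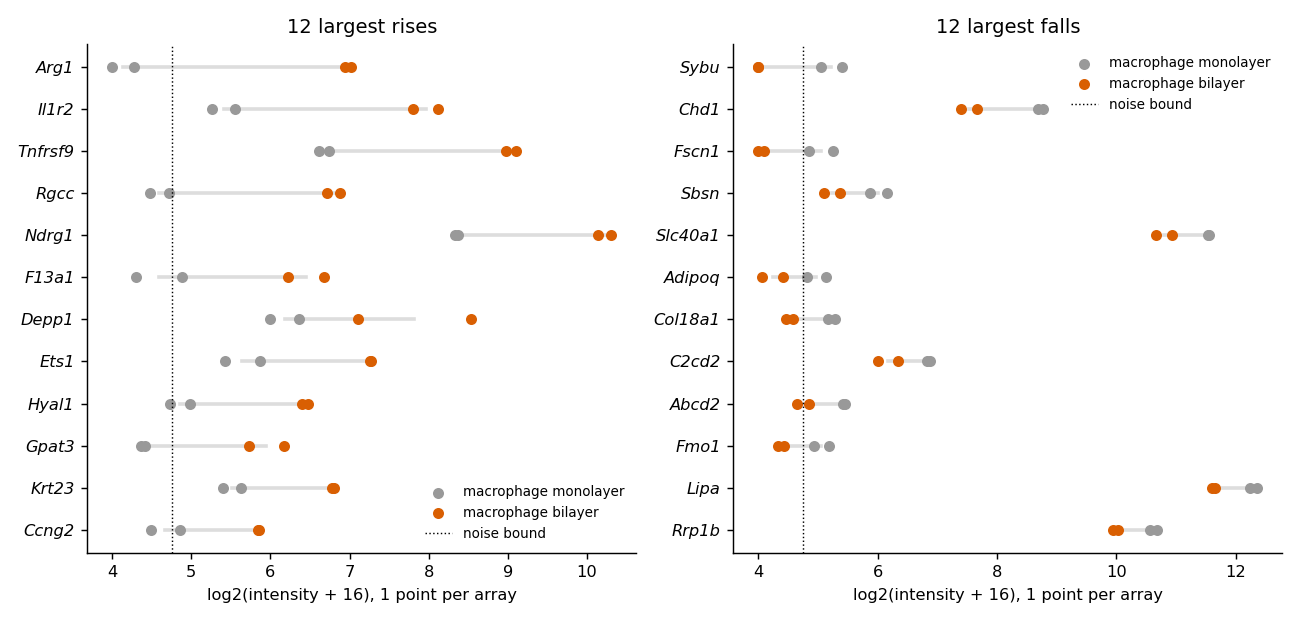
Intensity on each macrophage array, as log2(intensity + 16), for the 12 largest rises (left) and the 12 largest falls (right) among called genes, with 1 point per array and a line between group means. Genes were picked among calls with groups apart, so the lack of overlap follows from the rule. In 5 of the falls (Sybu, Fscn1, Adipoq, Col18a1 and Fmo1) both bilayer arrays lie under the dotted noise bound.

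The promoters of the 4 largest rises listed in RefSeq's table for GRCm38.p6 were searched on both strands, from 250 bases before the start to 50 after it. The motifs were NF-kB (GGGANTTTCC), AP-1 (TGANTCA), C/EBP (TTGCNNAA), STAT (TTCNNNGAA), STAT6 (TTCNNNNGAA), the hypoxia response element (ACGTG), ISRE (GAAANNGAAA) and CRE (TGACGNCA). Of the 12 largest rises 9 had an entry, and the 4 searched were Il1r2, Tnfrsf9, Rgcc and F13a1. Tnfrsf9 and F13a1 had 2 entries each, of which the first was searched. Of the 4 promoters searched, only that of Il1r2 held matches to the motifs as written. ACGTG occurred there 6 times, the overlapping matches on the opposite strands of CACGTG counted apart, and STAT 1 time, 111 bases before the start. Of 32851 promoters of the same length, 19.6% held ACGTG and 8.3% the STAT motif. NF-kB was held by 0.411%, AP-1 by 7.81%, C/EBP by 10.8%, STAT6 by 6.95%, ISRE by 3.44% and CRE by 3.21%. Il1r2 (chr1:40085843-40086142, plus strand) is shown because its matches are visible in a near repeat, with matches in capitals and read 5′ to 3′. Rgcc (chr14:79301586-79301885, minus strand) is shown because its p was the smallest in the pooled fit.
Il1r2: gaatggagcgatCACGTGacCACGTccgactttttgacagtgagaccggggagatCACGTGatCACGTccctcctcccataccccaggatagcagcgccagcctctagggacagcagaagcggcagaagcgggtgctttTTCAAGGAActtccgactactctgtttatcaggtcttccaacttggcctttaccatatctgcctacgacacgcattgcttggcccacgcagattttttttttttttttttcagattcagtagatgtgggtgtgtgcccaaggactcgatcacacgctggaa
Rgcc: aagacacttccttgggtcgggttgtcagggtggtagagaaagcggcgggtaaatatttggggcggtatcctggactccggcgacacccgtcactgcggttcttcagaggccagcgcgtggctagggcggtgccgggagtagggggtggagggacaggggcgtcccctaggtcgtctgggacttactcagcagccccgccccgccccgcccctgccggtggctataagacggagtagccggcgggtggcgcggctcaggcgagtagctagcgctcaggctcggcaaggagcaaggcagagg
A match describes letters in this window, and a promoter with none says nothing of the factor.

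Rgcc, a complement-induced regulator of the cell cycle, had the smallest p of all genes in the pooled fit. It read 6.28 and 10.3 in monolayer, inside the noise, and 102 and 88.9 in bilayer, and entered the test through the bilayer arrays alone. The rise was at least 4.14-fold, with a fitted difference of 2.20 (SE 0.15, adjusted p = 6.97e-06). With the macrophage arrays alone Tnfrsf9, Il1r2 and Arg1 had smaller adjusted p-values than Rgcc, whose SE was 0.26 and adjusted p 7.53e-05. Without either monolayer array the adjusted p was 0.00022 to 0.00065, and without a bilayer array it was not tested. F13a1, the A subunit of coagulation factor XIII, read 3.74 and 13.5 in monolayer and 86.5 and 58.9 in bilayer. The difference was 1.86 (SE 0.30, adjusted p = 0.0139). With 1 array left out it was called only without monolayer replicate 2 (0.0257, against 0.0567 to 0.163). F13a1 was counted in the list of matrix proteases and inhibitors, although it is neither. Of the 14 tested genes of that list F13a1 and Timp1, an inhibitor of metalloproteinases, were called higher, and the median was -0.07. The share called higher among all tested genes was 0.494%, with a median of 0.0027. Timp1 was at the noise bound, at 6.18 and -4.57 against 16 and 12.7, and entered the test through the bilayer arrays alone. It was not called with the macrophage arrays alone (adjusted p = 0.555).

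The transcription factor gene Ets1 read 26.9 and 42.4 in monolayer and 139 and 137 in bilayer. It rose by 1.62 (SE 0.17, adjusted p = 0.000497) and stayed called with any 1 array left out (0.00297 to 0.0411). Gpat3, an acyltransferase of the first step of triglyceride synthesis, read 4.61 and 5.29 in monolayer and 56.0 and 36.8 in bilayer, at least 2.29-fold higher (adjusted p = 0.000276). This probe entered the test through the bilayer arrays alone, and without 1 of them it was not tested, being above noise on too few. Another probe then stood for Gpat3, higher by 0.27 without bilayer replicate 1 and by 0.64 without bilayer replicate 2. With all arrays that other probe was higher by 0.45. Hyal1, a lysosomal hyaluronidase, read 10.5 and 15.6 against 73.0 and 68.1 (1.58, SE 0.32, adjusted p = 0.0406, 0.213 to 0.29 with 1 array left out). The keratin gene Krt23 read 26.1 and 33.6 against 93.7 and 95.5 (1.28, SE 0.25, adjusted p = 0.0306), with 0.107 to 0.177 when 1 array was left out. These genes, picked among calls with groups apart, rose from low levels.

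Depp1, a FOXO target linked to autophagy, was the least even of the large rises. It read 47.9 and 66.4 in monolayer and 122 and 353 in bilayer, so that the bilayer arrays differed from each other more than the monolayer arrays did from the lower of them. Its difference of 1.64 (SE 0.33, adjusted p = 0.0406) was called without bilayer replicate 1 (0.00957) and lost without any other array (0.218 to 0.317). Ccng2, a cyclin linked to cell cycle exit, rose from near noise, at 6.47 and 12.9, to 41.3 and 42.1 (1.18, SE 0.22, adjusted p = 0.0287). With the macrophage arrays alone Ccng2 was not called (adjusted p = 0.0786), and with 1 array left out it was not called either (0.0841 to 0.206).

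Genes of the hypoxia response were higher in bilayer macrophages in part. Of 17 tested, 3 rose, none fell and 14 did not pass, with a positive difference in 16 and a median of 0.37. A further 6 genes of the list on the array were too dim in macrophages to be tested. Over all tested genes 0.494% were called higher and 0.174% lower, and the median was 0.0027. Ndrg1, a stress and hypoxia-induced gene, read 314 and 307 in monolayer and 1250 and 1110 in bilayer. It rose 3.66-fold (1.87, SE 0.23, adjusted p = 0.00173), and with 1 array left out its adjusted p was 0.0324 without monolayer replicate 1 and 0.0502 to 0.085 without the others. Pdk1, the kinase that holds back pyruvate dehydrogenase, read 315 and 293 in monolayer and 483 and 447 in bilayer. It rose by 0.59 (SE 0.09, adjusted p = 0.00831), and with 1 array left out it was called only without monolayer replicate 1 (0.0324, against 0.0567 to 0.13). Bnip3l, a receptor for the removal of mitochondria, read 581 and 588 in monolayer and 828 and 767 in bilayer. It rose by 0.44 (SE 0.07, adjusted p = 0.0162, 0.0676 to 0.189 with 1 array left out). With the macrophage arrays alone 5 of the 17 were called, all higher. That fit called 155 of all 10326 tested genes (1.5%), 93 of them higher.

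Of 14 tested glycolysis genes none was called by limma in the pooled fit, although 13 had a positive difference and 10 an unadjusted p under 0.05. The median was 0.31, against 0.0027 over all tested genes, of which 1124 of 10326 had an unadjusted p under 0.05. Tpi1, the triosephosphate isomerase, read 13900 and 14700 in monolayer and 21300 and 20000 in bilayer. Its difference of 0.53 (SE 0.13, adjusted p = 0.113) did not pass. With the macrophage arrays alone 6 of the 14 were called, all higher, and Tpi1 had an adjusted p of 0.00031. Of all 10326 tested genes 155 (1.5%) were called in that fit, 93 higher. Of 27 oxidative phosphorylation genes none was called, 3 had an unadjusted p under 0.05 and the median was 0.03. Sdhb, a succinate dehydrogenase subunit, was the nearest (2180 and 2330 against 1940 and 1940, adjusted p = 0.241).

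Adipocytes had larger median differences in these genes. Their median over the same 17 hypoxia genes was 1.03, and over the same 14 glycolysis genes 0.72. The difference between the lines was itself called for 4 of the hypoxia and 7 of the glycolysis genes, against 2.58% of all tested genes. Pdk1 rose by 1.4 in adipocytes, and the macrophage change was smaller by 0.81 (SE 0.12, adjusted p = 0.00281). For Ndrg1 the changes were 1.87 and 1.76, a difference of 0.11 (SE 0.30) that did not pass (adjusted p = 0.893).

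**Figure D3:**
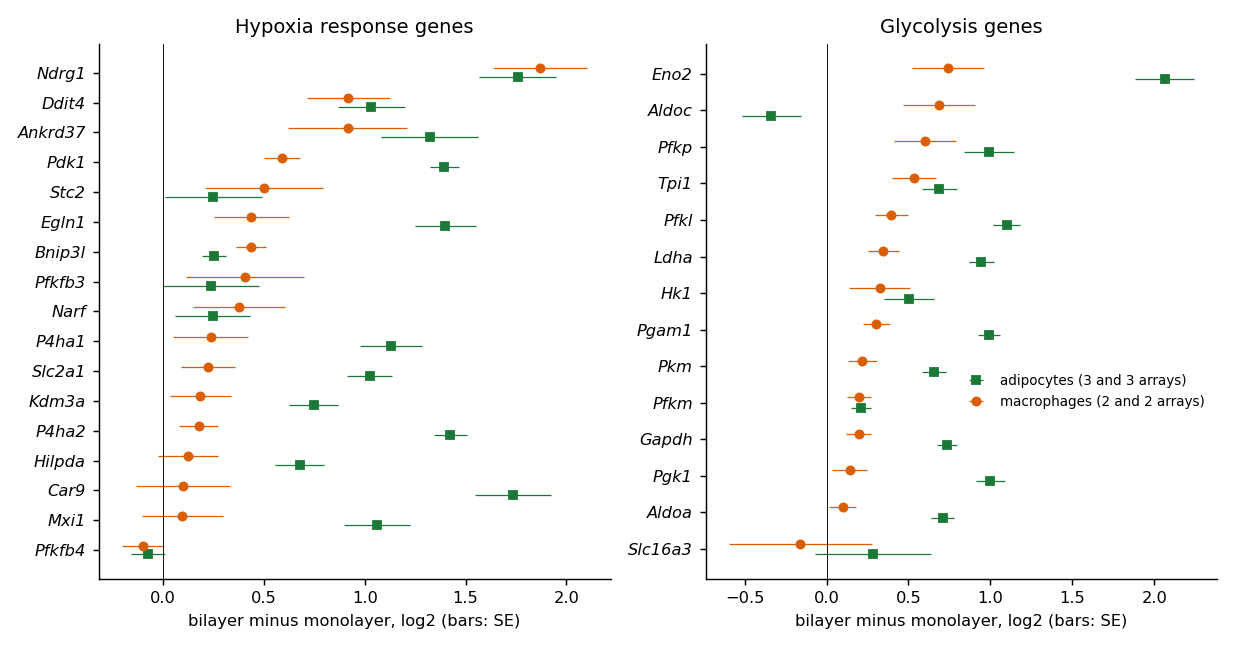
Difference between bilayer and monolayer (x axis, log2, bars are SE) for each tested gene of the hypoxia response (left) and of glycolysis (right), in macrophages (circles, 2 and 2 arrays) and adipocytes (squares, 3 and 3 arrays). Most macrophage points lie right of 0, with a median of 0.37 and 0.31, and most adipocyte points lie farther right, with a median of 1.03 and 0.72.

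Iron uptake and export genes were both lower. Slc40a1 encodes ferroportin, the exporter by which macrophages release iron, and read 2950 and 2990 in monolayer and 1610 and 1940 in bilayer. It fell by 0.74 (SE 0.13, adjusted p = 0.0183, 0.0803 to 0.272 with 1 array left out). Tfrc, the transferrin receptor of iron uptake, read 4460 and 4020 in monolayer and 2650 and 2910 in bilayer. It fell by 0.61 (SE 0.09, adjusted p = 0.00674) and was called without monolayer replicate 2 but not without the other arrays (0.0567 to 0.141). Of 17 tested iron handling genes these 2 fell, none rose and 15 did not pass, with a median of -0.12. Over all tested genes 0.174% were called lower. Gclm, the modifier subunit of the enzyme that starts glutathione synthesis, read 2340 and 2560 in monolayer and 1700 and 1770 in bilayer (-0.50, SE 0.09, adjusted p = 0.0165, 0.0569 to 0.218 with 1 array left out). It was the 1 called of 24 tested NRF2 targets and metallothioneins, whose median was -0.14.

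Lipid genes moved in both directions. Lipa, the lysosomal acid lipase that frees cholesterol and fatty acids from taken-up lipoproteins, read 4820 and 5260 in monolayer and 3110 and 3220 in bilayer. It fell by 0.67 (SE 0.13, adjusted p = 0.0378, 0.17 to 0.345 with 1 array left out). Of 25 tested lysosome genes Lipa was the 1 called, with a median of -0.06, and of 19 fatty acid-induced PPAR targets and lipid droplet genes it was also the 1 called, with a median of 0.04. Among all tested genes 0.174% were called lower. Scd2, a stearoyl-CoA desaturase, read 616 and 514 in monolayer and 1070 and 1100 in bilayer. It rose by 0.92 (SE 0.10, adjusted p = 0.000532, 0.00375 to 0.0423 with 1 array left out) and was the 1 called of 12 LXR targets and sterol efflux genes, whose median was 0.11.

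Over all tested genes 0.494% were called higher, and the median was 0.0027. Of 19 tested genes of cholesterol synthesis and uptake, 2 rose, none fell and 17 had a positive difference, with a median of 0.20. Fads2, a fatty acid desaturase regulated with them, read 120 and 132 in monolayer and 192 and 186 in bilayer (0.53, SE 0.10, adjusted p = 0.0306). It was not called with the macrophage arrays alone (adjusted p = 0.0543) or with 1 array left out (0.107 to 0.208). Fdps, the farnesyl diphosphate synthase, read 7940 and 7520 in monolayer and 9910 and 9910 in bilayer (0.36, SE 0.08, adjusted p = 0.0493). Its call was lost with 1 array left out (0.17 to 0.364).

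Feedback inhibitors of cytokine receptors were represented by Cish and Socs2, which dampen JAK-STAT signalling. Cish read 48.4 and 52.7 in monolayer and 97.9 and 97.4 in bilayer. It rose by 0.77 (SE 0.09, adjusted p = 0.001) in the pooled fit. With the macrophage arrays alone its SE was 0.19 and its adjusted p 0.0439. Socs2 read 29.6 and 13.5 in monolayer and 62.5 and 48.8 in bilayer (0.96, SE 0.16, adjusted p = 0.015). It was not called with the macrophage arrays alone (adjusted p = 0.108) and was called with 1 array left out only without monolayer replicate 1 (0.00348, against 0.0802 to 0.227). The other 15 of 17 tested SOCS and MAPK feedback inhibitors did not pass, and the median was 0.06. Among all tested genes 0.494% were called higher, and the median was 0.0027.

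Among the falls, Chd1, a chromatin remodeller, was the largest in a gene above noise on all arrays. It read 423 and 394 in monolayer and 153 and 188 in bilayer, a 2.28-fold fall (-1.19, SE 0.21, adjusted p = 0.0165). With 1 array left out it was not called (0.11 to 0.245 where the same probe was used, and 0.401 without monolayer replicate 1, where another probe was the brightest). Its 3 other probes were also lower, by differences from -0.89 to -0.02. Rrp1b, a nucleolar protein, read 1500 and 1620 against 1030 and 970 (-0.63, SE 0.11, adjusted p = 0.0161, 0.0737 to 0.202 with 1 array left out), and 1 of its 3 other probes pointed the other way, at 0.10. C2cd2 read 102 and 97.1 against 64.6 and 47.9, and the epidermal gene Sbsn 42.5 and 55.0 against 25.1 and 18.3. With the macrophage arrays alone neither was called (adjusted p = 0.0838 and 0.198), and with 1 array left out neither was called (0.0528 to 0.248 and 0.0524 to 0.259).

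The remaining large falls were at the edge of detection. Sybu, Fscn1, Adipoq, Col18a1 and Fmo1 were above noise on the monolayer arrays only and entered the test through them alone. Sybu, an adaptor of kinesin transport, read 17.2 and 26.1 in monolayer and -0.477 and -0.416 in bilayer, at least 1.39-fold lower (adjusted p = 0.0306). The actin-bundling gene Fscn1 read 12.8 and 22.2 against -2.12 and 1.01, at least 1.23-fold lower (adjusted p = 0.00674). Adipoq, the adipocyte hormone adiponectin, read 12.1 and 19.0 against 0.748 and 5.26, at least 1.17-fold lower (adjusted p = 0.0162), beside an adipocyte level of 22000 in monolayer. It was the 1 called of 4 tested adipocyte markers, whose median was -0.06, beside 0.174% called lower among all tested genes. The collagen gene Col18a1 and the monooxygenase gene Fmo1 were at least 1.39-fold and 1.24-fold lower (adjusted p = 0.0162 and 0.0414). Abcd2, a peroxisomal fatty acid transporter, read 27.6 and 26.9 against 12.8 and 9.07 (-0.69, adjusted p = 0.0406), and its other probe pointed the other way, at 0.41. With the macrophage arrays alone none of these 6 was called (adjusted p = 0.207 to 0.521), and none was called in any fit with 1 array left out that could test it, where Sybu ran from 0.172 to 0.188 and Fscn1 from 0.0567 to 0.0831. Without a monolayer array the other probe stood for Abcd2.

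Across all 36 gene lists, 581 different genes were tested and 18 called (3.1%), 13 higher and 5 lower. Over all tested genes 0.668% were called, and the lists were chosen with earlier results of these data known. An unadjusted p under 0.05 was found for 1124 of all 10326 genes. No call was found in 21 lists. Some lists in that group held genes of immune function. Of 24 interferon response genes none was called and the median was -0.16, with 6 at an unadjusted p under 0.05. Oasl2, an oligoadenylate synthetase-like gene, read 226 and 198 in monolayer and 136 and 114 in bilayer (-0.69, SE 0.18, adjusted p = 0.136), and it was 1 of 3 called lower with the macrophage arrays alone (adjusted p = 0.0107). That fit called 62 of all 10326 tested genes lower. Of 23 macrophage identity genes none was called, with a median of -0.02 and 1 with an unadjusted p under 0.05. The Fc receptor gene Fcgr3 had the smallest p, at 4970 and 5300 against 6730 and 6930 (adjusted p = 0.241), and was called higher with the macrophage arrays alone (adjusted p = 0.00299). Of 24 Toll-like receptor and LPS sensing genes none was called (median 0.04, 1 with an unadjusted p under 0.05), and Nod2 had the smallest p there as well. Of 22 phagocytic and scavenger receptors (median -0.01, 4 with an unadjusted p under 0.05) Gas6, a bridge between dying cells and their receptors, came nearest, at 58.9 and 41.7 against 37.4 and 14.9 (adjusted p = 0.156, 0.0234 without bilayer replicate 1).

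Further immune lists also had no call, and the number of their genes with an unadjusted p under 0.05 follows each median. That number was 1124 of 10326 over all tested genes. Of 15 NF-kB subunits and inhibitors (median 0.03, 0 genes) the subunit gene Nfkb2 had the smallest p (adjusted p = 0.534), and of 8 chemokine and chemoattractant receptors (median -0.02, 0 genes) Cxcr4, the receptor for CXCL12, had it (177 and 147 against 106 and 97.1, adjusted p = 0.475). Of 19 antigen presentation genes (median 0.02, 1 gene) it was H2-Q7, whose near-identical relatives make its probe uncertain (adjusted p = 0.31). Of 14 prostaglandin and leukotriene synthesis genes (median -0.02, 2 genes) it was Alox5, the lipoxygenase of leukotriene synthesis, at 499 and 532 against 757 and 760 (adjusted p = 0.252, and 0.00198 with the macrophage arrays alone). Of 12 osteoclast genes (median 0.03, 4 genes) it was the gelatinase gene Mmp9, at 2800 and 3090 against 4150 and 3870 (adjusted p = 0.162, and 0.00292 with the macrophage arrays alone). Of 20 immediate early genes (median -0.03, 2 genes) it was Fosb, whose bilayer arrays were both below noise (adjusted p = 0.319).

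Stress and growth lists were likewise without a call, with the same number after each median, to be set beside 1124 of 10326 over all tested genes. Of 23 integrated stress response genes (median -0.11, 6 genes) Ddit4, an inhibitor of mTOR signalling, came nearest, at 142 and 124 against 236 and 297 (0.92, SE 0.21, adjusted p = 0.0708, and 0.000752 with the macrophage arrays alone). Of 19 endoplasmic reticulum stress genes (median -0.02, 1 gene) it was the folding enzyme gene Pdia3 (adjusted p = 0.407), of 11 heat shock genes (median -0.13, 3 genes) Hspb8 (adjusted p = 0.167), and of 16 amino acid transporters (median -0.19, 3 genes) Slc7a6 (adjusted p = 0.21). Of 32 proliferation genes (median 0.04, 1 gene) it was the spindle gene Nusap1 (adjusted p = 0.328), of 14 ribosomal protein genes (median 0.00, 0 genes) Rpl37 (adjusted p = 0.576), and of 4 fibroblast and preadipocyte markers (median 0.28, 1 gene) the biglycan gene Bgn (adjusted p = 0.162, 0.0223 without monolayer replicate 2).

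**Figure D4:**
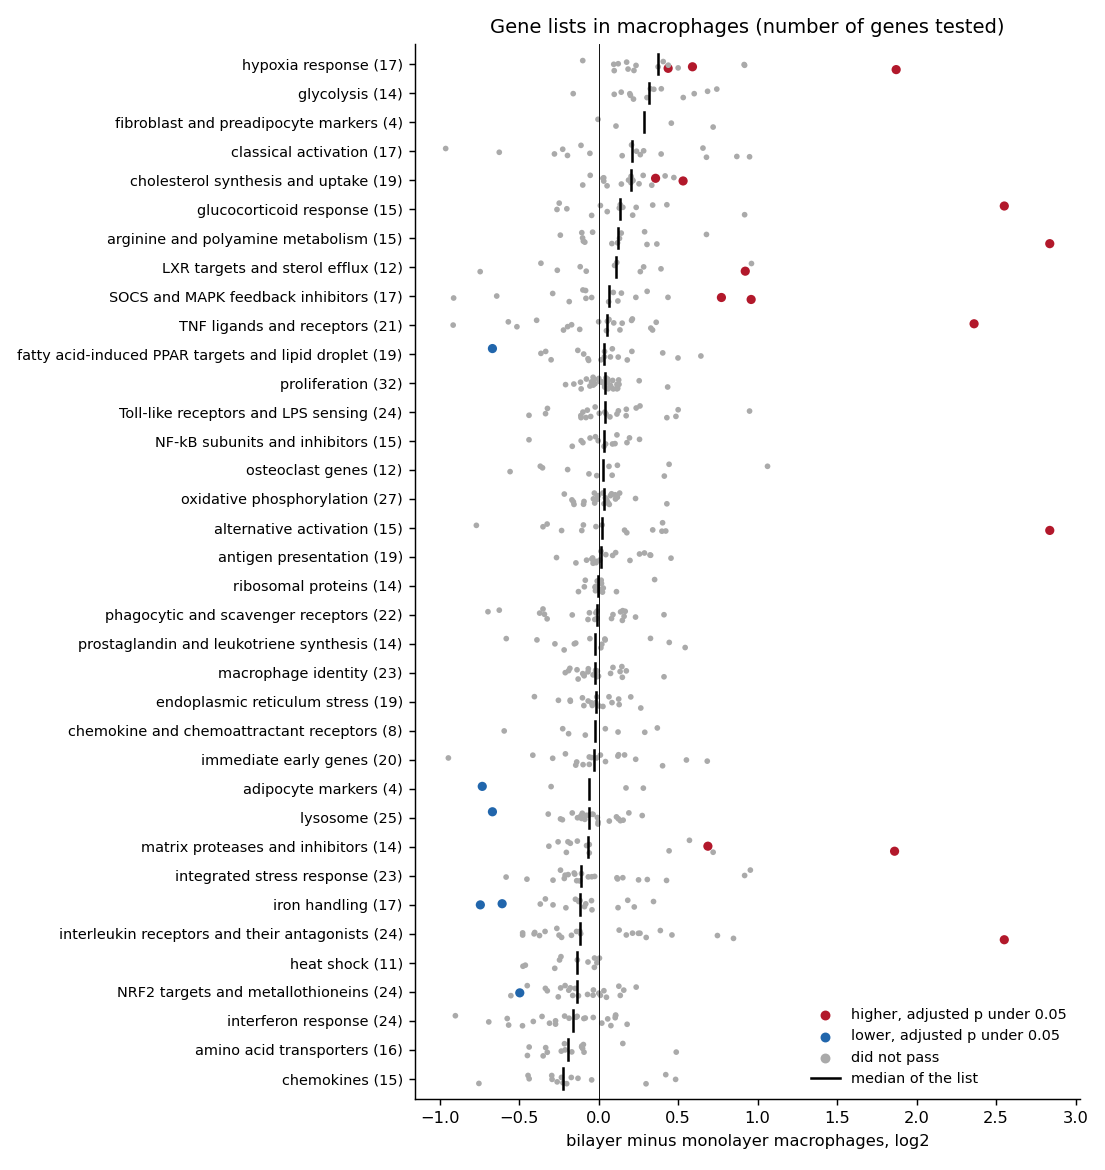
Difference between bilayer and monolayer macrophages (x axis, log2) for each tested gene of the 36 lists, with the number tested in brackets and the list median as a bar. Calls are few and scattered, 3 of 17 in hypoxia response and 0 of 14 in glycolysis, which have the highest medians, 0.37 and 0.31.

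Whether these changes differed from those of the adipocytes was tested in the same fit. The difference was called for 266 of the 10326 genes (2.58%), 113 with the macrophage change higher and 153 lower. In adipocytes 1014 of the same genes were called (9.82%). Of the 69 macrophage calls 26 were also called in adipocytes, 21 in the same direction and 5 in the opposite one, so that the shared ones are 30.4% of the macrophage calls and 2.07% of the adipocyte calls. Both comparisons used the same pooled spread of each gene, so this overlap is not one of independent tests. For 32 of the 69 the difference itself was called. The 69 were picked by their macrophage change, which enters the difference, so this share is not comparable with the 2.58% over all genes.

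The changes of Arg1, Il1r2, Rgcc, Gpat3, F13a1 and Ets1 exceeded those in adipocytes. For Arg1 and Il1r2 the adipocyte arrays were all below noise, and the differences were 2.84 (SE 0.34, adjusted p = 0.000852) and 2.71 (SE 0.33, adjusted p = 0.000867). Rgcc was expressed by adipocytes, at 389 ± 6.80 in monolayer and 425 ± 49.3 in bilayer (SD, n = 3 each), and the difference was 2.09 (SE 0.19, adjusted p = 6.83e-05). For F13a1 and Ets1 the differences were 1.98 (SE 0.39, adjusted p = 0.0167) and 1.31 (SE 0.22, adjusted p = 0.00744). Gpat3 fell in adipocytes from 1740 ± 92.9 to 1290 ± 184 (SD, n = 3 each), a change of -0.43 (adjusted p = 0.0413). It rose in macrophages, a difference of 1.99 (SE 0.19, adjusted p = 0.000125), while its other probe rose there by 0.45. Lipa went the opposite way, from 1300 ± 82.8 to 1800 ± 369 in adipocytes (SD, n = 3 each), a rise of 0.45 (adjusted p = 0.02) and a difference of -1.11 (SE 0.17, adjusted p = 0.00456). For Tnfrsf9, above noise on 2 of 6 adipocyte arrays, the difference of 2.40 (SE 0.60) did not pass (adjusted p = 0.0507).

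The iron genes Tfrc and Slc40a1 were measured in both lines. Tfrc fell in adipocytes too, from 2290 ± 145 to 1490 ± 104 (SD, n = 3 each), a change of -0.62 (adjusted p = 0.000126), and the difference of 0.01 (SE 0.12) did not pass (adjusted p = 0.978). Slc40a1 was 443 ± 19.1 and 470 ± 83.4 in adipocytes (SD, n = 3 each), and the macrophage change was lower by 0.81 (SE 0.17, adjusted p = 0.0209). Depp1 rose by 1.98 in adipocytes, and the difference of -0.35 (SE 0.43) did not pass (adjusted p = 0.743).

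**Figure D5:**
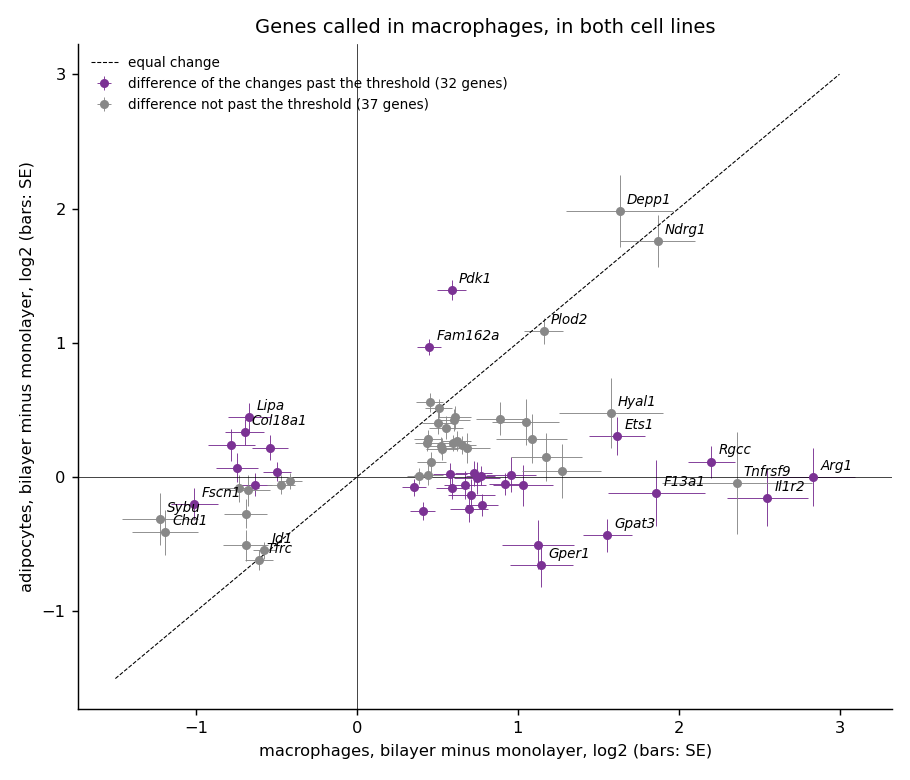
Bilayer minus monolayer in macrophages (x axis, log2) against the same in adipocytes (y axis, log2) for the 69 genes called in macrophages, with bars of 1 SE and the line of equal change dashed. The 32 genes with a called difference (purple) include Arg1, Il1r2 and Rgcc near 0 on the adipocyte axis, while Ndrg1, Depp1 and Tfrc lie near the line.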

How the data were processed

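Total RNA of 10 samples was measured on Illumina mouse bead arrays labelled with biotin (per the labels). Analysis began from the deposited probe intensities, which, from their values below 0 and matching distributions, the authors had background-subtracted and normalized, by a method not given in the sources used here. The submitters' processing notes list GenomeStudio 2011.1. The values had nearly the same distribution on each array (median 5.08 to 5.10, 35.49% to 35.51% below 0). A further 20 value columns carried names that match no sample and were not used, so slide and detection p-values entered no test.

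Groups followed the labels. The platform annotation gave 1 symbol for 34885 probes, several for 18 and none for 10378. A gene was its brightest probe in macrophages among those above the noise bound of 10.9 (99th percentile of the sizes of values below 0) on at least 2 of the 4 macrophage arrays. Negative values were set to 0, and log2(intensity + 16) was fitted with limma 3.58.1 in R 4.3.3, as 4 groups over all 10 arrays, and moderated by eBayes with a trend on intensity. The spread was pooled over both lines, so a p-value rests partly on adipocyte scatter. Tests were two-sided. A gene with no array above noise in a group is given as at least N-fold, against the higher of its value and the bound. Such a gene entered the test through the other group alone, so its p-value follows a choice made on the same values. On simulated data with known changes of 2 log2 units in 50 of 10326 genes, 100% were recovered in the macrophage comparison. Most calls were smaller than this, and recovery of smaller changes is not given here. Each simulated gene had the same spread in both lines, so the simulation could not test the pooling of spread.

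Same-numbered macrophage arrays did not deviate together (correlation -0.0036). Alternatives were the macrophage arrays alone, pseudocounts of 8 and 32, other filters and floors, no trend, renormalization, other probe rules, a replicate block and leaving out each array. Genes named were the 12 largest rises and 12 largest falls among calls with groups apart, up to 4 calls per list or the member with the smallest p, and 14 activation genes named whatever their values. The samples, lists and rules were chosen with earlier results of these data known, and no list was tested as a set.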

Additional observations from a re-analysis of the deposited data

Results flagged for a closer look

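The change from monolayer to bilayer differed between macrophages and adipocytes, by the test of the difference in limma, for 23 of the 61 named genes that could be tested, 12 with the macrophage change higher and 11 lower. Over all tested genes it was 266 of 10326 (2.58%), and 24 of the named genes were chosen for the size of their macrophage change, which enters the difference, so the shares are not comparable. Values are macrophage minus adipocyte differences in log2. The higher ones were Arg1 (2.84), Il1r2 (2.71), Rgcc (2.09), Gpat3 (1.99), F13a1 (1.98), Ets1 (1.31), Scd2 (0.97), Socs2 (0.94), Cish (0.76), the spindle gene Nusap1 (0.69), Pdia3 (0.67) and Fdps (0.44). Nusap1 and Pdia3 were not called in macrophages and fell in adipocytes, by 0.43 and 0.47.

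The lower ones were Oasl2 (-2.97), Ccl2 (-1.74), Lipa (-1.11), Col18a1 (-1.03), Sbsn (-1.02), Slc40a1 (-0.81), Fscn1 (-0.81), Pdk1 (-0.81), Ccl9 (-0.70), Rrp1b (-0.57) and Gclm (-0.54). Oasl2 and Ccl2 rose in adipocytes by 2.28 and 1.48 and were not called in macrophages, where their differences were -0.69 and -0.26. Of these 23 genes, Col18a1 and Fscn1 were below noise on both bilayer macrophage arrays.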

How the results depend on the processing

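With 69 calls as reported, fitting the 4 macrophage arrays alone gave 155 genes, 93 higher and 62 lower, and 20 of the 69 were not among them. The share of higher calls was 73.9% in the pooled fit and 60% in the other. The count of lower genes was 11 where all 4 arrays had to be above noise and 32 with values below the noise bound set to it. Leaving out 1 array gave 9 to 37 genes, 8 to 33 higher and 1 to 4 lower, where a group of 1 array is assumed to vary like the others. For the difference between the lines, 266 genes became 100 with no filter on dim probes (47 higher, 53 lower), 68 with no variance trend (25 and 43) and 65 to 119 with 1 array left out (15 to 42 and 50 to 77). With the replicate block 70 were higher, against 113, and 49 genes were called in macrophages. The block keeps 44 of the 69 and the numbers mark no pairing. Abcd2 turned to 0.34 without monolayer replicate 1 and 0.49 without monolayer replicate 2, fits in which its other probe was the brightest and stood for the gene, and was -0.79 without bilayer replicate 1, with the same probe as in the pooled fit. No other named gene changed direction in the alternatives run. Under no filter on dim probes 24 of the 69 were kept, and under no variance trend 29. A correction of the scanner signals was not run, since those columns could not be tied to samples. Dim genes, such as Sybu and Timp1, are limited by signal over background.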

Other observations

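Among the 69 called genes, 35 lay outside the rule for naming and were singled out after their values were seen. The intermediate filament gene Vim read 4690 and 4350 in monolayer and 6740 and 6280 in bilayer (0.53, SE 0.08, adjusted p = 0.00831). The membrane-binding annexin gene Anxa2 read 7910 and 8640 against 12400 and 12700 (0.60, SE 0.08, adjusted p = 0.00174). The actin-severing gene Gsn read 91.9 and 97.1 against 180 and 167 (0.78, SE 0.10, adjusted p = 0.00177). With 1 array left out Gsn stayed called in all 4 fits, Anxa2 in 3 and Vim in 1. The small GTPase gene Rras was higher by 0.66 and stayed called in 3, and the Rac activator gene Tiam1, higher by 0.68, in 0 of the 4 limma fits.

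Plod2, a collagen lysyl hydroxylase known as a hypoxia-induced gene, read 56.6 and 59.7 against 154 and 146 (1.16, SE 0.12, adjusted p = 0.00042) and rose by 1.09 in adipocytes. Pygl, a glycogen phosphorylase, read 186 and 149 against 338 and 377 (1.03, adjusted p = 0.0226), and Pgm1, a phosphoglucomutase of glycogen metabolism, 2410 and 2480 against 3530 and 3180 (0.45, adjusted p = 0.0287). Lpin1, a phosphatidate phosphatase, and Acss2, an acetyl-CoA synthetase, were higher by 1.09 and 0.56. Hcar2, a receptor for ketone bodies and niacin, read 242 and 208 against 340 and 312 (0.51, adjusted p = 0.0162). The growth factor gene Tgfb3 read 39.1 and 60.1 against 125 and 125 (1.13, adjusted p = 0.0379) and differed from adipocytes by 1.63 (adjusted p = 0.00981). The BMP target gene Id1 read 1130 and 1190 against 787 and 761 (-0.57, SE 0.07, adjusted p = 0.00177). With 1 array left out Plod2 stayed called in all 4 fits, Id1 in 3, Lpin1 and Hcar2 in 1, and Pygl, Pgm1, Acss2 and Tgfb3 were lost in each.

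Hmox1, the haem oxygenase that frees iron from haem, was also picked after its values were seen. It read 1110 and 1120 in monolayer macrophages and 945 and 814 in bilayer (-0.34, adjusted p = 0.206), rose by 1.79 in adipocytes, and the difference between the lines was -2.12 (adjusted p = 2.36e-06).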
